A study of Homo sapiens with 10 samples.

Results

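Cytosolic ribosomal protein genes (RP genes) encode the protein part of the ribosome that translates nuclear mRNAs. They were taken from 2 tables of RNA-seq read counts by symbol: RPL or RPS followed by a digit, or RPSA, RPLP0, RPLP1 and RPLP2, without the RPS6K kinases, antisense genes and pseudogenes. The table of untreated cells held 90 such genes among 26256 rows, and the table of the Nutlin-3a experiment held 95 among 55736 rows. Both tables held 46 genes of the large subunit, 31 genes of the small subunit, 8 paralogs, 3 readthrough loci and the Y-linked copies RPS4Y1 and RPS4Y2, which are not described further. The second table added 5 other copies, among them RPS10L, RPL12L3, RPL7AL2 and RPL7AL3. The 77 subunit genes, 1 for each ribosomal protein, are called standard RP genes here. FAU and GNB2L1 (RACK1) also encode ribosomal proteins but fall outside the rule by their names.

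MCF10A is a non-transformed, immortalized human mammary epithelial cell line. G12V cells are MCF10A cells that received the HRas oncogene with the G12V substitution by lentivirus together with a GFP vector, were selected with hygromycin and resumed growth after an arrest. Whether they are a clone is not given in the sources used here. The untreated experiment compared parental MCF10A (2 libraries) with G12V cells (2 libraries), neither of which was given a drug. The other experiment compared parental MCF10A cells given 10 µM Nutlin-3a for 4 h (3 libraries) with cells given its vehicle DMSO for the same time (3 libraries). All cells were grown in medium with epidermal growth factor, insulin, hydrocortisone and cholera toxin, and were used within 5 passages. Nutlin-3a blocks the binding of p53 to MDM2, the ubiquitin ligase that keeps p53 low.

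Library totals ran from 21538593 to 23683975 counts in the untreated experiment and from 15453226 to 17378734 counts in the other. HRAS was read first as a check of the labels, with 69.3 ± 4.77 CPM (read counts scaled to a common library size, here corrected by TMM) in MCF10A and 573 ± 82.0 CPM in G12V cells (SD, n = 2). MDM2 and CDKN1A, which p53 induces, had log2 fold changes of 2.54 (SE 0.18) and 2.16 (SE 0.13) with Nutlin-3a. All 7 epithelial markers read in the parental cells were above 10 CPM. In G12V cells KRT5 was at 1078 CPM, KRT18 at 204 CPM, DSP at 156 CPM and EPCAM at 6.72 CPM. KRT14 and KRT17 were at 0.11 and 0.99 CPM and CDH1 at 0.48 CPM in G12V cells. Of the markers of immune, endothelial and fibroblast cells, 5 of 7 were below 1 CPM in every untreated library and 5 of 6 in every library of the other experiment. The exceptions were the fibroblast marker COL1A1, at up to 11.5 CPM in the untreated libraries and 11.7 CPM in the others, and the endothelial marker PECAM1, at up to 3.51 CPM in the untreated libraries.

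Ribosomal proteins are made in step with ribosomal RNA and with each other, and are assembled in the nucleolus into a small subunit that decodes the mRNA and a large subunit that joins the amino acids. Many of their mRNAs begin with a C followed by a run of pyrimidines, the terminal oligopyrimidine (TOP) start, through which the mTOR pathway and LARP1 govern their translation. Ribosomal proteins that are not built into ribosomes, above all RPL5 and RPL11 with 5S rRNA, can bind MDM2 and so stabilize p53. Their genes have many processed pseudogenes, and their introns often hold small nucleolar RNAs.

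The starts of RP genes are shown first, because many of them carry the TOP run, a feature they share with translation factors and other mRNAs. Windows of 30 bases around the annotated start were read from RefSeq (GRCh38.p14), 15 bases upstream and 15 transcribed, on the strand of the gene and 5′ to 3′. Capitals mark a TOP run, defined as C at the annotated start followed by at least 4 more C or T, up to the end of the window. For genes with more than 1 annotated start the start with the longer run was taken.

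RPS6, chr9:19380222-19380251, minus strand: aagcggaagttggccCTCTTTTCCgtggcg
RPL11, chr1:23691791-23691820, plus strand: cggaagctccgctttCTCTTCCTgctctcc
RPS19, chr19:41860240-41860269, plus strand: ggaaaccccgtcgttCCCTTTCCCCTggct
RPLP0, chr12:120201097-120201126, minus strand: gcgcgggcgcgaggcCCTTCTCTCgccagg
RPL38, chr17:74203663-74203692, plus strand: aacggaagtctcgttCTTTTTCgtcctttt
RPL39, chrX:119791616-119791645, minus strand: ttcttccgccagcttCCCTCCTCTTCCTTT

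A TOP run stood at the start of 46 of the 62 standard RP genes that had an entry (74.2%), against 5.14% of 27305 genes with an entry. The remaining 16 had another base or a shorter run at the annotated position, which says only that these letters are not at that position. In the fixed list of translation factors and other mRNAs, 13 of 14 had one, but these were listed because they are known for a TOP start. Of the genes for ribosome assembly 12.2% had one, and of the genes for mitochondrial ribosomal proteins 8.70%. In 3 of the 4 pairs below the standard gene had a TOP run and its paralog had none, while RPL22 and RPL22L1 both had one.

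RPS27, chr1:153990747-153990776, plus strand: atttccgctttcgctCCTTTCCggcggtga
RPS27L, chr15:63157463-63157492, minus strand: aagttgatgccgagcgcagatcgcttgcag
RPL26, chr17:8383179-8383208, minus strand: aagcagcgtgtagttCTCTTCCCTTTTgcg
RPL26L1, chr5:172958714-172958743, plus strand: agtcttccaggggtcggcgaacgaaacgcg
RPL36A, chrX:101390996-101391025, plus strand: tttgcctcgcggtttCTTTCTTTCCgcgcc
RPL36AL, chr14:49620612-49620641, minus strand: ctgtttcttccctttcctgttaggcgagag
RPL22, chr1:6199581-6199610, minus strand: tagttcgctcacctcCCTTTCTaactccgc
RPL22L1, chr3:170870181-170870210, minus strand: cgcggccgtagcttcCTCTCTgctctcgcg

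Of the 6 paralogs with an entry only RPL22L1 had a TOP run at its start. RPS27L, RPL26L1, RPL36AL, RPL7L1 and RPL10L had none, and RPL36AL had a run of 3 pyrimidines, too short to be counted.

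RP genes took 5.92% and 8.49% of all counts in the MCF10A libraries (replicates 1 and 2) and 5.24% and 6.40% in the G12V libraries. Standard RP genes that could be tested had a median of 836 CPM in MCF10A, and 72 of 75 were above 100 CPM. Their coding sequences are short, from 75 to 1281 bases with a median of 456, so levels were compared between genes per kilobase of coding sequence. RPL41, a basic peptide of the large subunit with the shortest coding sequence, had 18381 CPM per coding kb in MCF10A, a value that rests on that length, since counts cover the whole transcript. The acidic stalk proteins RPLP1 (3947 CPM per coding kb) and RPLP0 (3203), which recruit elongation factors to the ribosome, RPL37A (3413), a zinc-binding protein of the large subunit, and RPS2 (2936), which lines the entry channel of the mRNA, followed. Per kilobase of transcript, a scale added after the data were seen, RPLP0 (2756 CPM per kb), RPS2 (2731) and RPL3 (2639) were highest and RPL41 (2039) was at rank 6 of 75. The lengths are of 1 canonical transcript per gene in another annotation, and those of RPL37 (7573 bases) and RPL14 (7136) exceed the counted locus. RPL37A went from rank 3 per coding kb to rank 61 per transcript kb, so this order rests on the lengths too.

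In the DMSO libraries the order was RPL37A (3249 CPM per coding kb), RPL8 (3147), RPS14 (2885), RPLP1 (2815) and RPS6 (2303), with a median of 441 CPM over the 76 standard RP genes tested. Per kilobase of transcript RPL8 (2268 CPM per kb), RPS12 (1565) and RPS18 (1507) were highest there. The tables were counted on separate annotations and no test was made across them. Of the 75 standard RP genes tested in both, 10 were at least 10 times lower in CPM in the DMSO libraries than in untreated MCF10A. RPS3A had 1348 CPM in untreated MCF10A and 6.61 CPM in DMSO, RPL7 had 1296 and 8.93 CPM, and RPS26 had 311 and 6.54 CPM. RPS27, RPL23A, RPS28, RPL39, RPL9 and RPL41 were also among them. Conversely RPL21 had at most 2 reads in any untreated library but 129 to 171 reads in those of the Nutlin-3a experiment. Rows of RP pseudogenes held 0.0853% to 0.127% of the RP counts in the untreated libraries (31 rows) and 0.488% to 0.539% in the others (861 rows, 509 with a read). How reads that match both a gene and its pseudogenes were counted is not given in the sources used here, and its part in these levels was not tested. The low counts of these genes limit what can be said of them in the Nutlin-3a experiment.

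**Figure D1:**
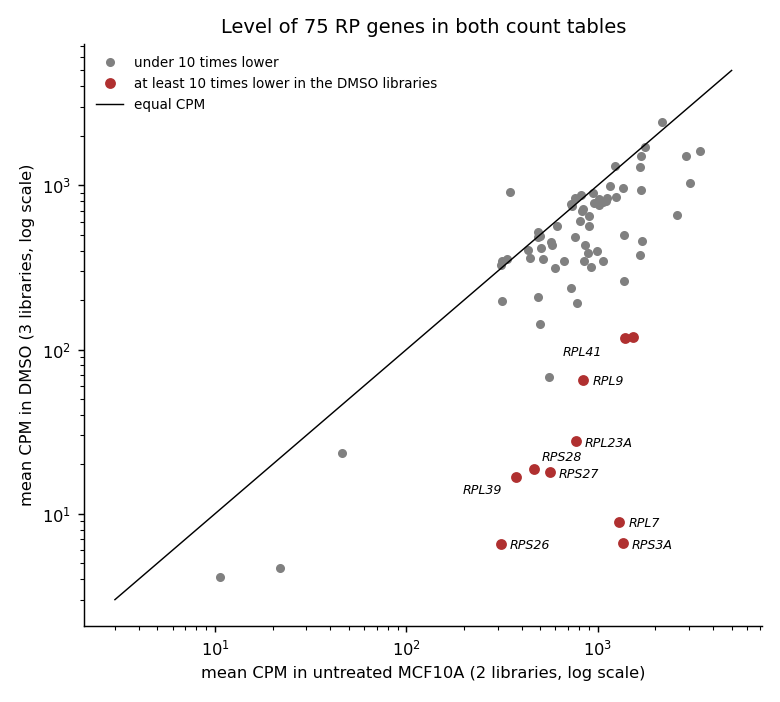
Mean CPM of the 75 standard RP genes tested in both tables, in untreated MCF10A (x axis, 2 libraries) and in DMSO-treated MCF10A (y axis, 3 libraries), both on log scales. Most genes lie at or below the line of equal CPM, and the 10 genes in red, most of them named, are at least 10 times lower in the DMSO libraries.

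The comparison of G12V with MCF10A asked whether the oncogene changed the mRNA levels of the ribosome. RPL39L, a paralog of RPL39, was the only RP gene that passed the test, and it fell. The standard RP genes were lower in G12V cells in 72 of 75 cases, against 50.1% of all tested genes, and higher in 3, against 49.9%. Their median log2 fold change was -0.36, but none of them passed the test. Their levels also differed between replicates of the same cells by as much as between the cell types. RPL38 and the paralogs RPS27L, RPL26L1, RPL36AL and RPL7L1 were higher in G12V cells, without passing the test.

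Of the 90 RP genes, 81 passed the filter on low counts. The 9 that did not included RPL21, RPL3L, RPL10L, the 3 readthrough loci and both Y-linked copies. In edgeR's quasi-likelihood test, 1 of the 81 genes (RPL39L) was DE, which required a log2 fold change beyond 0.5 in either direction with an adjusted p below 0.05, against 11.0% of the 14376 genes tested (5.95% lower and 5.01% higher). At an unadjusted p under 0.05 there were 2, RPL39L and RPS27L, against 25.6% of all genes. The median log2 fold change was -0.35 over the RP genes and -0.0011 over all tested genes. It was -0.36 over the large subunit (45 genes tested) and -0.32 over the small subunit (30 genes tested). The median SE of a standard RP gene was 0.31, close to the median difference itself. The quartiles of the standard RP genes were -0.43 and -0.27.

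The RP genes kept a common order across the 4 libraries. In 62 of the 75 standard RP genes the order from high to low was MCF10A replicate 2, G12V replicate 2, MCF10A replicate 1 and G12V replicate 1, and in 66 of 75 G12V replicate 2 lay above MCF10A replicate 1. MCF10A replicate 1 lay above G12V replicate 1 in 72 of 75, by a median of 0.23 on the log2 scale. MCF10A replicate 2 lay above G12V replicate 2 in 72 of 75, by a median of 0.43. The median standard RP gene was at 634 and 1022 CPM in the MCF10A libraries and at 551 and 754 CPM in the G12V libraries. Between the MCF10A replicates the standard RP genes differed by a median of 0.61 on the log2 scale, against -0.0059 over all tested genes, and between the G12V replicates by 0.42. Without MCF10A replicate 2 the median of the RP genes was 0.00068, with 41 genes above 0 and 40 below, and without MCF10A replicate 1 it was -0.59. Without G12V replicate 1 it was -0.14 and without G12V replicate 2 it was -0.57. G12V libraries were all below MCF10A libraries in 10 of the 81 RP genes, against 27.4% of all tested genes, and all above in 3 (RPL38, RPL26L1 and RPS27L), against 27.5%. In bulk RNA, fewer RP transcripts in each cell and a change in other transcripts that share the library cannot be told apart.

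**Figure D2:**
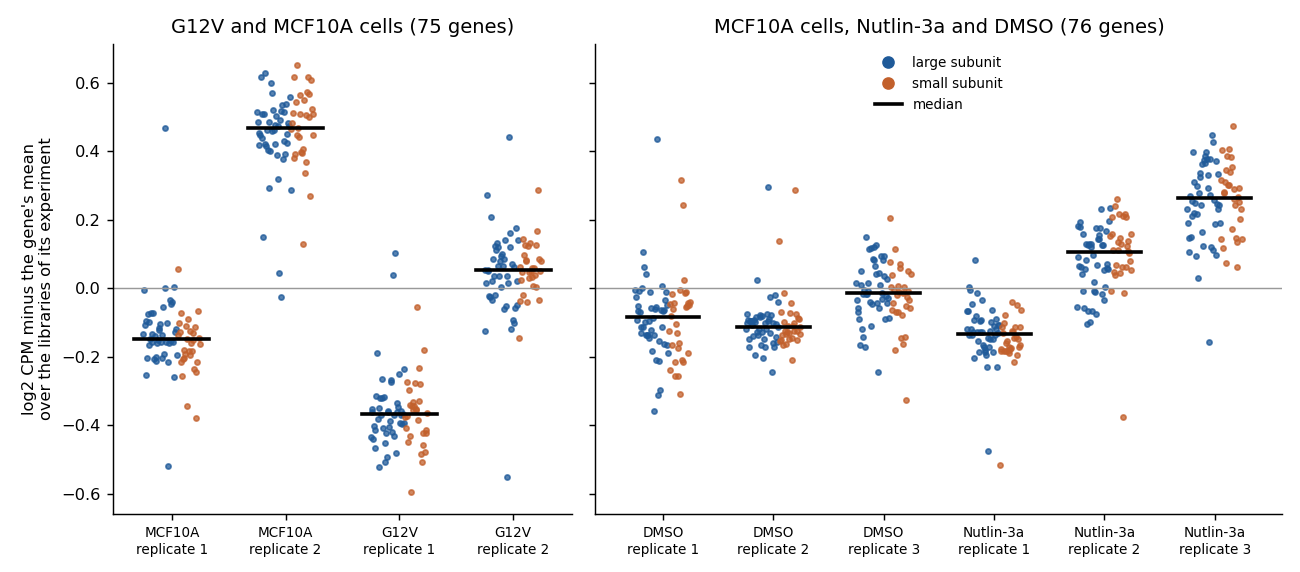
Each point is a standard RP gene in 1 library, as log2 CPM minus the mean of that gene over the libraries of its experiment (75 genes left, 76 right), and black bars are medians. MCF10A replicate 2 stands highest on the left with a median of 0.47 and G12V replicate 1 lowest at -0.37, while Nutlin-3a replicate 3 stands highest on the right at 0.26.

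Short and abundant transcripts of other kinds were read in the same libraries. The 40 other genes with transcripts under 1 kb and over 200 CPM had a median of -0.054 on the log2 scale, with 17 higher and 23 lower in G12V cells. Their median deviation from the group mean was -0.096 and 0.096 in the MCF10A replicates and -0.10 and 0.10 in the G12V replicates, in the same order as the RP genes but smaller. Each is a distance to the mean of 2 replicates. It is therefore not on the scale of the full replicate differences of 0.61 and 0.42 given above for the standard RP genes. Transcript lengths, of the same canonical transcripts, were known for 95.9% of the tested genes.

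Among the structural proteins of the large subunit, RPL7, which binds several rRNA helices, had 1039 and 1553 CPM in MCF10A and 813 and 996 CPM in G12V cells. The groups did not overlap, but the difference of -0.52 (SE 0.30) had an adjusted p of 0.350. RPL3, which lies near the centre where peptide bonds form, had 2671 and 4169 CPM against 2066 and 3103 CPM, a log2 fold change of -0.40 (SE 0.37). RPL10, which completes the large subunit in the cytoplasm, had 1289 and 2021 CPM against 1046 and 1467 CPM, likewise -0.40 (SE 0.34). RPL41 had 1119 and 1638 CPM against 893 and 1057 CPM, a log2 fold change of -0.50 (SE 0.29) without overlap. RPL17, whose symbol is shared with a readthrough locus and which had few counts, was at 41.2 and 51.3 CPM against 40.6 and 53.4 CPM, a log2 fold change of 0.02 (SE 0.23).

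The stalk proteins recruit the GTPase factors. RPLP0 had 2419 and 3673 CPM in MCF10A and 2049 and 2685 CPM in G12V cells (log2 fold change -0.36, SE 0.34). RPLP1 had 1038 and 1661 CPM against 859 and 1090.2 CPM (-0.47, SE 0.32), and RPLP2, its partner in the stalk dimers, had 418 and 584 CPM against 406 and 528 CPM (-0.10, SE 0.27). All 3 overlapped between the groups. In the small subunit, RPS10 had 18.7 and 24.8 CPM against 13.9 and 16.3 CPM, without overlap (log2 fold change -0.53, SE 0.25) and with an adjusted p of 0.262. RPS10 shares its locus with the readthrough RPS10-NUDT3, so its counts are uncertain. RPSA, which is also the precursor of a laminin receptor, had 701 and 1070.2 CPM against 609 and 829 CPM (-0.30, SE 0.31). RPS19, which is needed to mature the small subunit and is mutated in Diamond-Blackfan anaemia, had 631 and 1007 CPM against 574 and 769 CPM (-0.29, SE 0.31). RPS2 had 2022 and 3139 CPM against 1833 and 2448 CPM (-0.27, SE 0.34). RPS6, the target of S6 kinases downstream of mTOR, was the exception among these, with 1374 and 2157 CPM in MCF10A and 1577 and 2183 CPM in the G12V libraries (log2 fold change 0.09, SE 0.34).

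Of the 8 RP genes with a known tie to p53 or MDM2, 7 were lower in G12V cells and RPS27L was higher, and none was DE. RPL5 had 924 and 1386 CPM in MCF10A and 809 and 1079.7 CPM in the G12V libraries (log2 fold change -0.29, SE 0.31). RPL11 had 615 and 909 CPM against 517 and 671 CPM (-0.36, SE 0.29). RPL23, RPL26, RPS3, RPS7 and RPS14, which can bind MDM2 or, for RPL26, promote the translation of p53, had log2 fold changes of -0.40, -0.29, -0.46, -0.42 and -0.44. The adjusted p of the 7 lower genes ran from 0.444 (RPL23) to 0.663 (RPL26).

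Of the 6 paralogs tested, 4 were higher and 2 (RPL39L and RPL22L1) were lower in G12V cells, and their difference from the standard RP genes was not tested. RPL39L is a copy of RPL39 known for its use in male germ cells. It had 58 and 38 reads in the MCF10A libraries and 0 and 1 reads in the G12V libraries, that is 2.64 and 1.67 CPM against 0 and 0.0446 CPM. The groups did not overlap, and edgeR fitted a log2 fold change of -6.30 (SE 0.82) at an adjusted p of 0.00821. Pooled over libraries, the 96 reads against 1 gave a ratio of 98.4 with an exact 95% interval from 17.2 to 3925, which covers counting error only. Without MCF10A replicate 1 the adjusted p was 0.111, a setting under which no gene of the table was DE, and it lay between 0.00144 and 0.00237 when another library was left out. The fitted value itself was loose, at -8.62 without G12V replicate 2, -5.43 without G12V replicate 1 and -4.35 with a prior count of 2. RPL39 itself had 279.9 and 472 CPM against 233 and 363 CPM, a log2 fold change of -0.33 (SE 0.34).

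RPS27L, a copy of RPS27 that p53 can induce, had 47.9 and 59.1 CPM in MCF10A and 72.6 and 107 CPM in G12V cells. Both G12V libraries were above both MCF10A libraries, and the adjusted p of this log2 difference (0.75, SE 0.25) was 0.120. RPS27 had 419 and 702 CPM against 367 and 491 CPM, a log2 fold change of -0.39 (SE 0.32). RPL26L1 was at 35.3 and 35.5 CPM against 41.5 and 43.4 CPM, without overlap (0.26, SE 0.19, adjusted p = 0.460), while RPL26 was at 594 and 964 CPM against 518 and 754 CPM. RPL36AL was at 128 and 144 CPM against 139 and 166 CPM (0.17, SE 0.19), while RPL36A was at 12.2 and 9.12 CPM against 9.06 and 6.02 CPM (-0.50, SE 0.33). RPL36A shares its locus with the readthrough RPL36A-HNRNPH2, so its counts and its contrast with RPL36AL are uncertain. RPL7L1 was at 95.9 and 73.1 CPM against 105 and 80.4 CPM (0.14, SE 0.23). RPL22L1, which can take the place of RPL22, was at 151 and 121 CPM against 128 and 83.0 CPM (-0.36, SE 0.26), and RPL22 at 406 and 595 CPM against 357 and 457 CPM (-0.30, SE 0.27). RPL3L, the muscle copy of RPL3, and RPL10L, the testis copy of RPL10, had at most 3 reads in any library.

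**Figure D3:**
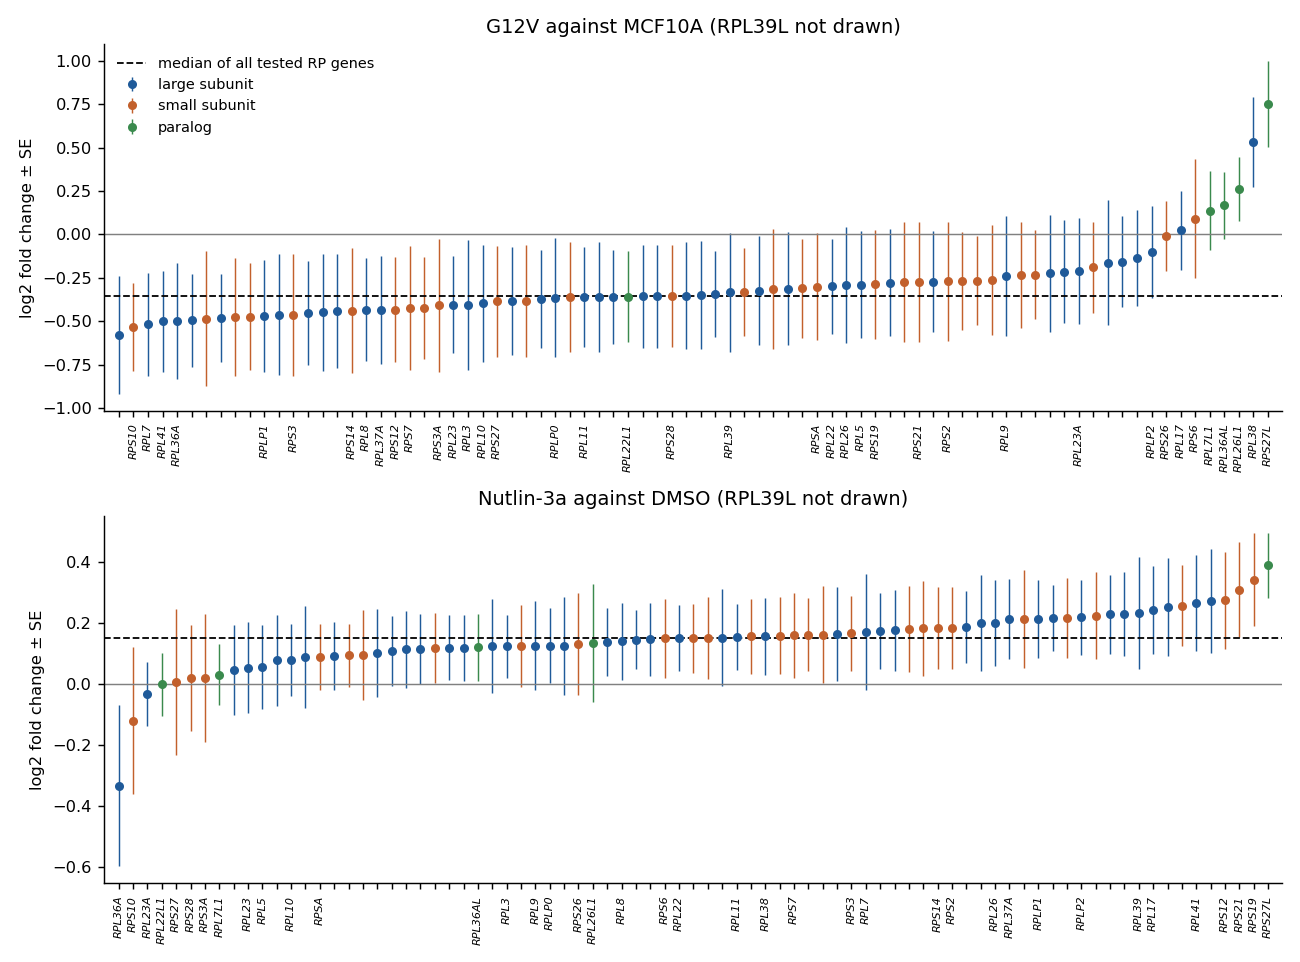
Log2 fold change with its SE for each tested RP gene other than RPL39L, ordered within each comparison (G12V against MCF10A above, Nutlin-3a against DMSO below) with names under the genes described in the text, and the dashed line is the median of all tested RP genes. Most genes lie near -0.35 above and near 0.15 below, and RPS27L is highest in both panels.

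Since the standard RP genes moved together from library to library, each was also set against the median standard RP gene of its own library. On this scale the median SD within a group was 0.073 (log2), against 0.37 for the levels themselves, and 68 of 75 genes differed by at most 0.2 between G12V and MCF10A. RPS6 was 1.12 and 1.08 above the median RP gene in MCF10A and 1.52 and 1.53 above it in G12V cells, a difference of 0.43. RPL38 lay at a mean of -1.39 against the median gene in MCF10A and at -0.53 in G12V cells, a difference of 0.87, the largest among the standard RP genes. RPS27L lay at -3.73 and -4.11 in MCF10A and at -2.92 and -2.81 in G12V cells. These relative levels are a description, and no test was run on them.

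RPL38, which is known for its part in translating Hox mRNAs, had 258 and 363 CPM in MCF10A and 397 and 503 CPM in G12V cells. The groups did not overlap, and the adjusted p of this log2 difference (0.53, SE 0.26) was 0.269. It lies on chromosome 17 from 72199795 to 72206019 (hg19), in distal 17q. The 103 other tested genes within 5 Mb had a median log2 fold change of 0.63. RPS6, on chromosome 9 from 19376254 to 19380235 (hg19), had 20 neighbours with a median of 0.56. These were the only 2 standard RP genes whose neighbours had a median above 0.4. Over the 75 standard RP genes, Pearson's r between the log2 fold change of a gene and the median of its neighbours was 0.59, and 0.19 without RPL38 and RPS6. All of these values come from the same 4 libraries. RPS27L, on chromosome 15 from 63445539 to 63449741, had 63 neighbours with a median of -0.0038.

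**Figure D4:**
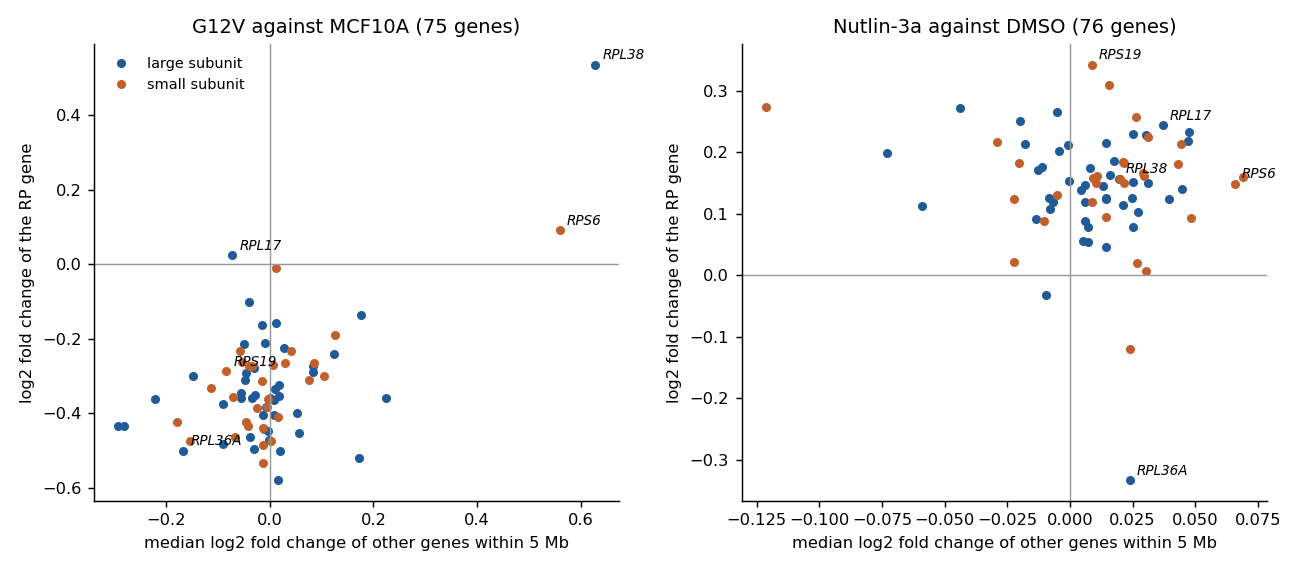
Log2 fold change of each standard RP gene (y axis) against the median log2 fold change of the other tested genes within 5 Mb (x axis), for G12V against MCF10A (left, 75 genes) and Nutlin-3a against DMSO (right, 76 genes). RPL38 and RPS6 stand apart on the left with neighbour medians of 0.63 and 0.56, while on the right the neighbour medians lie between -0.12 and 0.069.

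Genes with a TOP start and those with another start were alike in this comparison, at medians of -0.35 (45 genes tested) and -0.34 (16 genes tested) on the log2 scale. The list of translation factors and other TOP mRNAs had a median of -0.31, with 20 of 21 genes lower and none DE. In it TPT1 had the lowest value (-0.68, SE 0.38), and EEF1A1 and EEF2, the elongation factors, had -0.24 (SE 0.49) and -0.35 (SE 0.40). GNB2L1 had -0.34 (SE 0.36) and FAU -0.095 (SE 0.20). The genes of ribosome assembly and rRNA synthesis had a median of 0.24, with 38 of 46 higher and 1 DE, against 11.0% of all tested genes. This was NOP14, which fell (-0.97, SE 0.17, adjusted p = 0.0190) and is needed for small subunit assembly. Of the 77 mitochondrial ribosomal protein genes 52 were higher, with a median of 0.11, and 3 were DE and rose, against 5.01% of all tested genes: MRPL33 (1.07), MRPS23 (0.90) and MRPS5 (0.79). None of the 12 genes of translation signalling was DE, with a median of 0.24. The differences between these lists were not tested.

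Nutlin-3a against DMSO asked what short activation of p53 did in parental cells. No RP gene was DE after 4 h. The RP genes were slightly higher with Nutlin-3a in 78 of 82 cases, against 51.8% of all tested genes, and lower in 4, against 48.2%. Their median log2 fold change was 0.15, and Nutlin-3a replicates 2 and 3, not replicate 1, lay above their DMSO partners in most of these genes. RPS27L had the largest log2 fold change among them, 0.39, and was higher in every Nutlin-3a library than in any DMSO library.

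Of the 95 RP genes, 82 passed the filter, and 0 of them were DE in edgeR's quasi-likelihood test, against 0.170% of the 13529 genes tested (0.155% higher and 0.0148% lower). At an unadjusted p under 0.05 there was 1, RPS27L, against 3.42% of all genes in this unpaired fit. Blocked on replicate number, which pairs these libraries, there were 19 of 82, against 11.7% of all genes. DESeq2 and edgeR's exact test also called no RP gene DE. The median was 0.15 over the RP genes and 0.0066 over all tested genes, 0.15 over the large subunit (46 genes tested) and 0.16 over the small subunit (30 genes tested). The share of counts in RP genes was 4.36%, 4.10% and 4.42% in the DMSO libraries and 4.16%, 4.64% and 5.20% in the Nutlin-3a libraries. The median standard RP gene was at 419, 424 and 461 CPM with DMSO and at 419, 497 and 573 CPM with Nutlin-3a. Nutlin-3a replicate 1 lay above DMSO replicate 1 in 30 of 76 standard RP genes, replicate 2 in 71 and replicate 3 in 75. The median of all RP genes was 0.066 without Nutlin-3a replicate 3 and 0.24 without Nutlin-3a replicate 1. Nutlin-3a libraries were all above DMSO libraries in 6 of 82 RP genes (RPL3, RPL12, RPL13A, RPL17, RPL21 and RPS27L), against 3.70% of all tested genes, and all below in 0, against 4.38%.

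Transcript length moved with these libraries. Other genes with transcripts under 1 kb (816 genes) had a median of 0.11 on the log2 scale, with 616 higher and 200 lower, while those of 4 kb or more (4927 genes) had a median of -0.0051. In the 38 other genes under 1 kb and over 200 CPM the median was 0.12, with deviations of -0.13, -0.0031 and 0.13 from the group mean in Nutlin-3a replicates 1 to 3. The median transcript was 827 bases long in the standard RP genes and 3310 bases in other genes, with lengths known for 93.0% of the tested genes. The part of transcript length in the difference of the RP genes was not tested.

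RPS27L had 74.3, 73.3 and 84.1 CPM with DMSO and 96.1, 98.0 and 109 CPM with Nutlin-3a. The groups did not overlap, and the adjusted p of this log2 difference (0.39, SE 0.11) was 0.586. In the fit blocked on replicate number, which pairs these libraries, the log2 fold change was also 0.39 with an SE of 0.075 and the adjusted p was 0.0202, below the limit on p but still under the limit of 0.5 on the fold change. With the block it was the only RP gene with an adjusted p under 0.05, against 1.84% of all tested genes, and 0 RP genes were DE, against 1.22%. RPS27, its standard partner, was at 21.9, 15.2 and 16.6 CPM with DMSO and 16.1, 13.5 and 24.3 CPM with Nutlin-3a (0.01, SE 0.24).

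**Figure D5:**
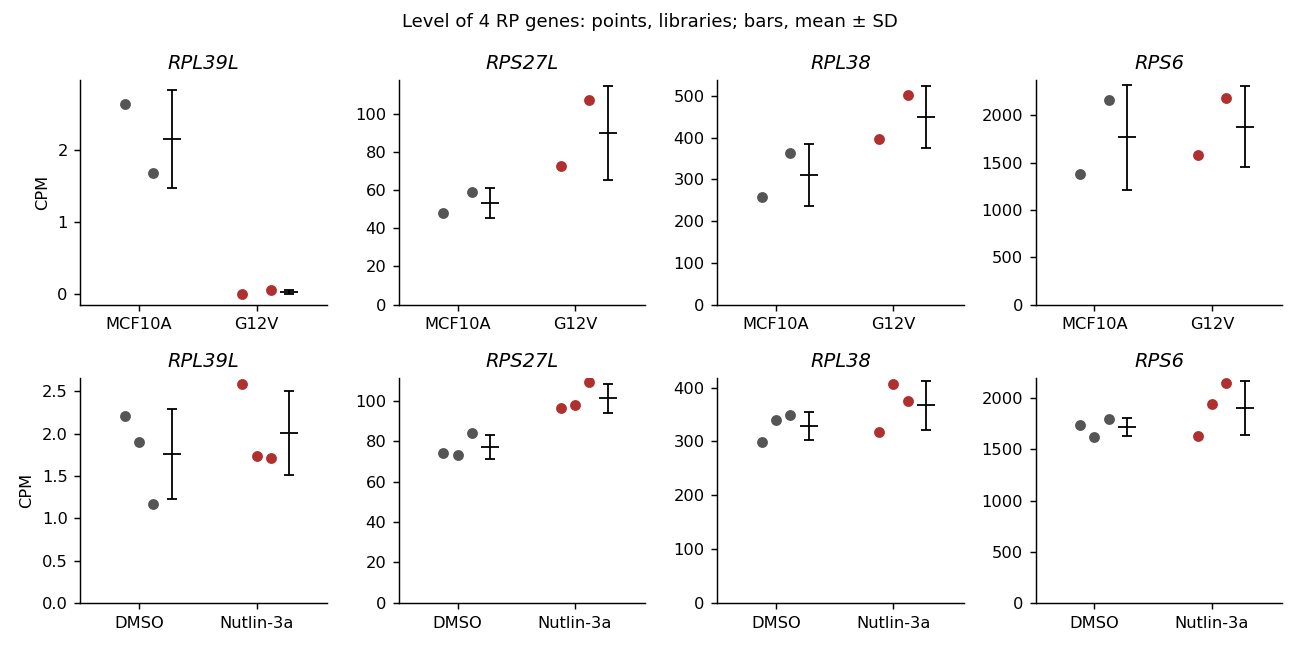
CPM of RPL39L, RPS27L, RPL38 and RPS6 in each library (points) with mean and SD (bars), in MCF10A and G12V cells above (2 libraries each) and with DMSO and Nutlin-3a below (3 libraries each). RPL39L is near 0 in the G12V libraries, and RPS27L is higher in every G12V and every Nutlin-3a library than in any library of the other group.

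The other 7 RP genes with a tie to p53 or MDM2 lay between 0.05 (RPL23) and 0.20 (RPL26), each with an adjusted p of 1.00. RPL5 had 1007, 897 and 1060.5 CPM with DMSO and 904, 978 and 1199 CPM with Nutlin-3a (0.06, SE 0.14). RPL11 had 828, 838 and 848 CPM against 843, 1001 and 949 CPM (0.15, SE 0.11). Both overlapped between the groups. RPS3, RPS7 and RPS14 had log2 fold changes of 0.17, 0.16 and 0.18.

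RPS19, RPS21 and RPS12, all of the small subunit, had the highest log2 fold changes among the standard RP genes. RPS19 had 813, 869 and 926 CPM with DMSO and 870.1, 1165 and 1269.8 CPM with Nutlin-3a, a log2 fold change of 0.34 (SE 0.15). RPS21 had 329, 364 and 374 CPM against 345, 457 and 520.4 CPM (0.31, SE 0.16), and RPS12 had 728, 774 and 860.3 CPM against 759.9, 959 and 1137 CPM (0.27, SE 0.16). In all 3 genes Nutlin-3a replicate 1 lay within the range of the DMSO libraries. RPL36A, RPS10 and RPL23A were lowest. RPL36A had 4.87, 4.42 and 3.03 CPM against 2.59, 3.97 and 3.22 CPM (-0.33, SE 0.26), RPS10 4.04, 4.85 and 5.08 CPM against 3.08, 4.90 and 4.87 CPM (-0.12, SE 0.24), and RPL23A 28.2, 27.8 and 27.0 CPM against 27.1, 26.1 and 27.9 CPM (-0.03, SE 0.10). These 3 had few counts, and RPL23A changed sign (0.06) when reads of its pseudogenes were added.

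The stalk genes RPLP0, RPLP1 and RPLP2 had log2 fold changes of 0.12 (SE 0.12), 0.21 (SE 0.13) and 0.22 (SE 0.12) with Nutlin-3a. RPS6 had 1741, 1625 and 1794 CPM with DMSO and 1628, 1945 and 2148 CPM with Nutlin-3a (0.15, SE 0.13), and RPSA 386, 361 and 408 CPM against 379, 411 and 438 CPM (0.09, SE 0.11). RPL38 had 299, 339.9 and 348 CPM against 318, 407 and 376 CPM (0.16, SE 0.13). RPL37A and RPL8, among the highest per coding kb, had log2 fold changes of 0.21 (SE 0.13) and 0.14 (SE 0.13). Of the other large subunit genes named above, RPL3 had 0.12 (SE 0.10), RPL10 0.08 (SE 0.12), RPL7 0.17 (SE 0.19) and RPL39 0.23 (SE 0.18).

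The tested paralogs other than RPS27L overlapped between DMSO and Nutlin-3a. RPL39L was read in every library here, at 2.21, 1.90 and 1.17 CPM with DMSO and 2.59, 1.74 and 1.71 CPM with Nutlin-3a (0.19, SE 0.32). RPL22L1 was at 179, 163 and 155 CPM against 158, 176 and 163 CPM (-0.0016, SE 0.10), and RPL22 at 0.15 (SE 0.11). RPL26L1, RPL36AL and RPL7L1 had log2 fold changes of 0.13 (SE 0.19), 0.12 (SE 0.11) and 0.03 (SE 0.10). RPL3L and RPL10L again had at most 3 reads in any library.

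Relative to the median standard RP gene of each library, 73 of 76 standard RP genes differed by at most 0.2 between Nutlin-3a and DMSO, with a median SD within a group of 0.080. RPS27L lay at -2.50, -2.53 and -2.45 with DMSO and at -2.12, -2.34 and -2.39 with Nutlin-3a, without overlap. RPS19 was 0.95, 1.03 and 1.01 above it with DMSO and 1.05, 1.23 and 1.15 above it with Nutlin-3a. RPL36A had the lowest difference, -0.51.

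Genes with a TOP start had a median log2 fold change of 0.16 (46 genes tested) and those with another start 0.12 (16 genes tested). The translation factors and other TOP mRNAs had a median of 0.10, with 18 of 20 higher, the genes of ribosome assembly and rRNA synthesis -0.052, with 32 of 46 lower, the mitochondrial ribosomal protein genes 0.035, with 51 of 75 higher, and translation signalling -0.064, with 7 of 12 lower. None of these genes was DE, and the differences between the lists were not tested. Over the 75 standard RP genes tested in both experiments, the log2 fold changes of the 2 comparisons had a Pearson's r of 0.17 across genes, which are not independent replicates, and the libraries of the 2 experiments are separate.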

How the data were processed

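Poly(A)-selected RNA was sequenced from 10 libraries labelled as biological replicas, made with a kit that keeps no strand, so a gene and its antisense partner cannot be told apart. The authors aligned reads with TopHat, used HTSeq to count per gene, and deposited raw counts of each experiment in a table of its own, in hg19 coordinates, with separate annotations. Each experiment was fitted with edgeR 4.0.16 (R 4.3.3, limma 3.58.1) after filterByExpr and TMM scaling, by its quasi-likelihood test, with p adjusted over all tested genes (Benjamini-Hochberg). A DE gene passed 0.05 on that adjusted p and 0.5 on the log2 scale, limits taken from the methods of the study. Each SE is the size of the fitted change divided by the root of its F value, at a prior count of 0.125. CPM are on TMM-scaled library sizes. The fits were tested first on simulated counts of independent genes, a setting unlike that of the RP genes, which moved together across libraries.

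The RP genes and all gene lists were chosen with earlier results of these data known. Named are the DE RP genes, the 3 highest and 3 lowest standard RP genes, the paralogs with their partners, those tied to p53, RPLP0, RPLP1, RPLP2, RPS6, RPSA and RPS19, and the 5 highest per coding kb. Symbols ending in P without digits (such as RPL39P) were also taken as pseudogenes. In the Nutlin-3a experiment libraries of the same number deviated together (correlations of 0.62, 0.59 and 0.63 over genes, against -0.47 to -0.19 for other pairs), so the numbers pair these libraries. Alternatives changed the tool (DESeq2 1.42.0, the exact test of edgeR), the scaling, the filter, the prior count (2), the thresholds and the block, added pseudogene reads, or left out 1 library at a time. Summaries and figures were made in Python 3.11.15 (pandas 2.3.3, numpy 2.4.6, matplotlib 3.10.9). Intervals cover counting error only, because reads were pooled and the spread between libraries is left out. PCR copies of a molecule were counted as separate reads, which can make the intervals too narrow. A few genes that these rules select are not reported here.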

Additional observations from a re-analysis of the deposited data

How the results depend on the processing

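Under DESeq2, the exact test, other scalings and other filters the RP genes called DE were the same in number, and the medians kept their sign. DE genes overall moved more, from 1575 to 2526 with the exact test in the G12V comparison, and from 23 to 88 with DESeq2, 83 with the exact test and 99 without a filter in the Nutlin-3a comparison. With the replicate number as a block, 2 RP genes were DE higher (RPS27L and RPL38) and 3 lower (RPL39L and RPS10 among them) in G12V cells, against 14.4% and 14.5% of all genes, while DE genes overall went from 1575 to 4158. On the adjusted p under 0.05 alone, the block gave 23 of 81 RP genes in G12V cells, against 4710 of 14376 genes. At an unadjusted p under 0.05 it gave 48 of 81, against 6063 of 14376 genes. Without the block these counts were 1 and 2 of 81. Libraries of the same number correlated at 0.48 in the untreated experiment. By their labels these samples share only a number, and with only 2 pairs, whether the numbers pair them cannot be told. In the Nutlin-3a experiment the block raised the DE genes from 23 to 165 and called no RP gene. At an unadjusted p under 0.05 with a fold above 1.3, 1 RP gene was higher (RPS27L, against 12.7% of all genes) and 1 lower (RPL39L, against 12.8%) in G12V cells. With Nutlin-3a 1 was higher (RPS27L, against 1.35%) and 0 lower (against 1.11%).

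When each library was left out in turn, the RP genes DE higher in G12V cells ran from 0 to 1 (RPS27L without G12V replicate 1, where 7.59% of all genes were DE higher) and those DE lower from 0 to 1. The 0 lower came without MCF10A replicate 1, where no gene of all was DE, and DE genes overall ran up to 2129 without G12V replicate 1. The median log2 fold change of the RP genes ran from -0.59 to 0.00068 in G12V cells. Its value without MCF10A replicate 2, 0.00068, was close to that of all tested genes, 0.00038, so the difference was absent there. The cause was not tested.

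Omitting 1 library at a time also turned the sign of single genes that had not passed the test. For G12V against MCF10A the log2 fold change ran from -0.18 to 0.45 for RPS6, from -0.19 to 0.21 for RPL17, from -0.072 to 0.37 for RPL7L1 and from -0.30 to 0.16 for RPLP2. It ran from -0.59 to 0.097 for RPL26, from -0.69 to 0.089 for RPL39, from -0.69 to 0.032 for RPS27, from -0.53 to 0.030 for RPL5, from -0.76 to 0.045 for RPS7, from -0.78 to 0.034 for RPS14, from -0.55 to 0.035 for RPSA, from -0.57 to 0.087 for RPS19 and from -0.53 to 0.080 for RPS2, each above 0 only without MCF10A replicate 2. For Nutlin-3a against DMSO it ran from -0.23 to 0.071 for RPS10, from -0.023 to 0.079 for RPL7L1, from -0.048 to 0.058 for RPL22L1, from -0.066 to 0.28 for RPL26L1, from -0.032 to 0.39 for RPL39L, from -0.027 to 0.13 for RPL10, from -0.28 to 0.18 for RPS27, from -0.072 to 0.14 for RPL5 and from -0.10 to 0.15 for RPL23. Here the median of the RP genes ran from 0.066 to 0.24.

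Other settings turned 3 genes near 0 with Nutlin-3a: RPL23A was 0.063 with pseudogene reads added, RPL7L1 was -0.0064 on library totals alone, and RPS27 was -5.28e-05 with upper-quartile factors, -0.033 on library totals alone, -0.0024 with pseudogene reads added and -0.013 with the replicate block. With 2 or 3 libraries a group, log2 differences of the size of their SE (median 0.31 for the standard RP genes in the G12V comparison) could not be told from the spread.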
